A study of Mus musculus with 24 samples.

Results

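The genes studied here are the potassium channel genes of the mouse heart, defined as every gene whose symbol begins with Kcn. Of 22180 genes that the arrays measured through probe sets naming a single gene, 90 met this rule, and values of the 7 genes with more than 1 probe set were averaged per gene. They comprise 25 pore-forming subunits of voltage-gated channels, 8 of the EAG and ERG channels, 3 KCNQ subunits, 14 inward rectifiers, 13 subunits of the 2-pore channels, 8 subunits of calcium- or sodium-activated channels and 16 auxiliary subunits. The other members are the noncoding transcripts Kcnq1ot1 and Kcnd3os, and Kcnrg, a regulator rather than a subunit. A list of 26 genes that carry or modify repolarising currents in heart muscle was kept apart, and 24 of them are among the 90. Of the other 2, Kcnk3 lay only in probe sets that name several genes, and 1 was not analysed here.

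Hearts came from male wild-type C57Bl/6 mice, 8 weeks old, under 12 h of light and 12 h of dark. No group carried a treatment or an engineered allele. Tissue labelled myocardium was taken at 6 points of the cycle, named by zeitgeber time (ZT, where lights-on starts the count and the unit is the hour), of which ZT03, ZT07 and ZT11 fell in the light and ZT15, ZT19 and ZT23 in the dark. Each time had 4 arrays that the labels call biological replicates, 24 in all, and whether a sample is 1 mouse or a pool is not given in the sources used here. Every value is a log2 difference from the probe set's own median across arrays. For genes with several probe sets it is the mean of such differences. No ranking of genes by level is therefore possible, and a gene that is silent in heart cannot be told from a bright one. The base of the logarithm is an assumption on which the fold changes rest.

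Potassium channels let potassium ions leave the cell and so end the cardiac action potential. In heart muscle the fast transient outward current starts repolarisation, delayed rectifier currents carry it on, and inward rectifiers set the resting potential, while channels opened by acetylcholine or by a fall in ATP tie membrane potential to vagal tone and metabolism. Pore-forming subunits assemble with auxiliary subunits (beta subunits, KChIPs and members of the MinK-related Kcne family) that alter gating and transport to the membrane. The mouse ventricle relies on transient outward and ultrarapid currents more than larger mammals do. Several of these genes have been described as having daily rhythms in rodent heart.

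The arrays followed a course of clock genes that can be set against their time labels: Arntl had its highest mean at ZT03 (1.42 ± 0.12, SD, n = 4) and its lowest at ZT11 (-1.13 ± 0.16), and Dbp its highest at ZT11 (1.15 ± 0.13). Arrays differed in quality as judged by limma's array weights, which ran from 0.498 to 1.37. The 3 lowest weights were those of ZT15 replicate 1 (0.498), ZT23 replicate 4 (0.573) and ZT07 replicate 4 (0.640), and calls that were lost without these 3 arrays are named beside the results. Of 8 ventricular cardiomyocyte markers, all were measured and 1 (Ryr2) had a rhythm. The mean over the list stayed between -0.04 and 0.05 at all 6 times. Only 1 of the 8 had a higher night mean (median night minus day -0.04), and the part of this lean in the results was not tested. Among measured markers of other cells, 4 of 6 for macrophages (median night minus day 0.19), 3 of 6 for fibroblasts, 1 of 7 for endothelium, 1 of 5 for the conduction system and 0 of 5 for neurons and Schwann cells had a rhythm in limma's test, and their part in the results was not tested. Because values are centred, the presence of cardiomyocyte RNA cannot be checked by level. Since the samples are bulk tissue, fewer cells of a type and less RNA per cell cannot be told apart.

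The question addressed is which potassium channel transcripts vary over the day, and when each is highest. A 24-h rhythm was fitted to each gene as a cosine curve with limma, giving an amplitude (peak minus mean, log2), a peak time and a moderated p-value adjusted over all 22180 genes by the Benjamini-Hochberg method. With an adjusted p below 0.05, 8 of the 90 members had a rhythm. Over all genes 7.61% did (1688 of 22180), so the family's 8.89% lay near the background. The 8 were Kcnip3, Kcnj5, Kcna5, Kcnh2, Kcnd2, Kcnj12, Kcnq1 and Kcnab1, and 7 of them stood on the cardiac repolarisation list. That list had 7 of 24 called (29.2%), and the other 66 members had 1 called (1.52%). No test of the list was made, and it was chosen with earlier results of these data known. These shares, and the median amplitudes that follow, are descriptions. The median amplitude was 0.0759 for the list, 0.0279 for the other members and 0.0396 for all genes. At an unadjusted p below 0.05 there were 16 members (17.8%), against 19.5% of all genes.

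The 8 rhythms were shallow and spread over the day, with 5 peaks counted to the light and 3 to the dark. Of all 1688 rhythmic genes 849 peaked in the light and 839 in the dark (3.83% and 3.78% of all genes). Peak-to-trough changes of the 8 ran from 1.16-fold to 1.31-fold, with a median of 1.22-fold, against 1.24-fold for all 1688 rhythmic genes. In order of peak time they were Kcnq1 (ZT 3.34 ± 0.97, SE in h), Kcnab1 (ZT 5.05 ± 0.978), Kcnd2 (ZT 6.36 ± 0.889) and Kcnh2 (ZT 10.5 ± 0.886) in the light. Kcna5 peaked at lights-off (ZT 12.0 ± 0.874), and Kcnip3 (ZT 14.1 ± 0.557), Kcnj12 (ZT 16.5 ± 0.933) and Kcnj5 (ZT 19.3 ± 0.731) followed in the dark. The gaps from Kcnq1 to Kcnab1 (1.71 h), from Kcnab1 to Kcnd2 (1.32 h) and from Kcnh2 to Kcna5 (1.49 h) were at most 1.24 times their combined SE, so the order within these neighbours is not resolved. The gap from Kcnd2 to Kcnh2 (4.15 h) was 3.30 times its combined SE, and those from Kcna5 to Kcnip3, Kcnip3 to Kcnj12 and Kcnj12 to Kcnj5 were 2.06 to 2.35 times theirs. These SEs assume cosine courses, and combining them treats genes measured on the same arrays as independent. Both pore-forming genes of the inward rectifier family that were called peaked in the dark, and the pore-forming genes Kcnq1, Kcnd2 and Kcnh2 peaked in the light.

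**Figure D1:**
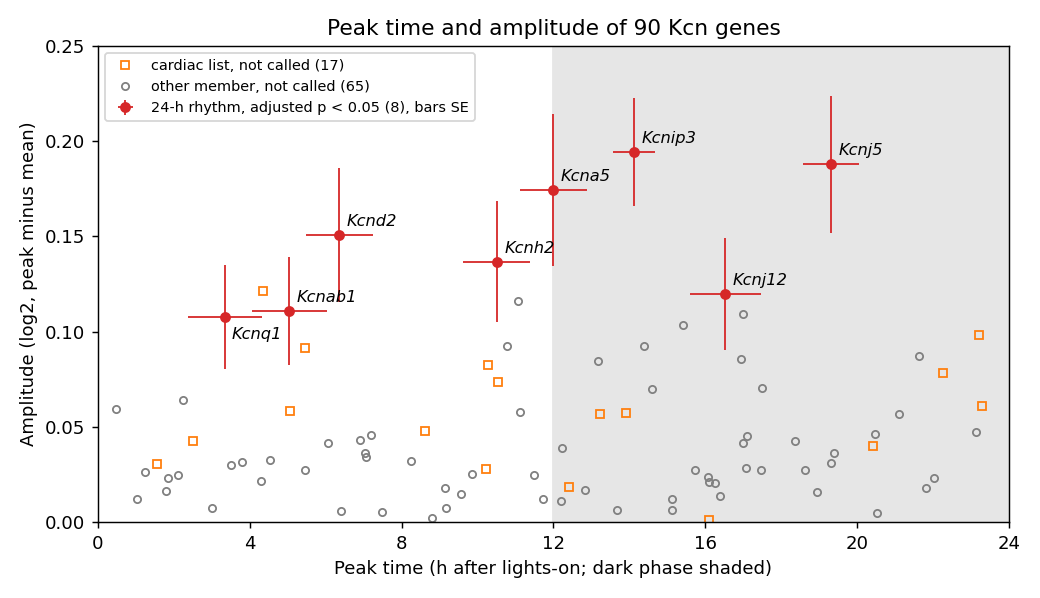
Peak time (x axis, hours after lights-on, dark phase shaded) against amplitude (y axis, log2, peak minus mean) for the 90 members, with SE bars on the 8 that had a 24-h rhythm. The 8 called genes lie between amplitudes of 0.107 and 0.194 and are spread from ZT 3.34 to ZT 19.3, and most other members lie lower, with peak times that carry little meaning at small amplitude.

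Promoters are shown for the gene with the largest amplitude, for the transient outward gene that was called and its KChIP partner that was not, for the gene of the acetylcholine-activated channel, and for the promoter of a called gene that held an E-box. They are 300-base windows of RefSeq start sites (250 bases before to 50 after, build GRCm38.p6), read 5′ to 3′ on the gene's strand. Capitals mark matches on either strand to 5 motifs, the E-box CACGTG bound by CLOCK and BMAL1, the site AGGTCA of ROR and REV-ERB receptors, the D-box pattern TTANNTAA, the short site AGAACA of the glucocorticoid receptor, and CCACCC, a core of sites bound by Kruppel-like factors.
Kcnip3, chr2:127522045-127522344, minus strand: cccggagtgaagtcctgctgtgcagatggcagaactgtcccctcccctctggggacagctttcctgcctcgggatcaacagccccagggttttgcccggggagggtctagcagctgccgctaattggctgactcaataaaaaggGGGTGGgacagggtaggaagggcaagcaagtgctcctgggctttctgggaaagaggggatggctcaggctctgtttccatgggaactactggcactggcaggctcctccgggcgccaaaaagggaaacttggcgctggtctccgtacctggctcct
Kcnd2, chr6:21215096-21215395, plus strand: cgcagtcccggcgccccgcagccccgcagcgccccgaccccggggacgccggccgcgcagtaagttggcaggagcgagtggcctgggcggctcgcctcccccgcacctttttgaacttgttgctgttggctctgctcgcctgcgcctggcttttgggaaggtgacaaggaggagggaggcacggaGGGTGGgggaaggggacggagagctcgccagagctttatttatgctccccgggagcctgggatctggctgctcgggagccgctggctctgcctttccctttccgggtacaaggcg
Kcnip2, chr19:45816014-45816313, minus strand: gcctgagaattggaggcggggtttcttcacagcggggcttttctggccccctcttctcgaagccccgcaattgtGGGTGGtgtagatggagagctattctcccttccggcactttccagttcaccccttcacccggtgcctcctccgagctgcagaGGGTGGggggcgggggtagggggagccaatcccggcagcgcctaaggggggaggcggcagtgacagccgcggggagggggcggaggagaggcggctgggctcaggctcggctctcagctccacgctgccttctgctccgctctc
Kcnj5, chr9:32344295-32344594, minus strand: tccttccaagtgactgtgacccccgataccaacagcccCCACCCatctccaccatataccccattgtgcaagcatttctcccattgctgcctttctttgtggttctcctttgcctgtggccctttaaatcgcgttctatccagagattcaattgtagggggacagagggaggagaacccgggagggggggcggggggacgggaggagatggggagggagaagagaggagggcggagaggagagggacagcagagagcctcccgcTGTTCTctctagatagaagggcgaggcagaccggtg
Kcnab1, chr3:65108764-65109063, plus strand: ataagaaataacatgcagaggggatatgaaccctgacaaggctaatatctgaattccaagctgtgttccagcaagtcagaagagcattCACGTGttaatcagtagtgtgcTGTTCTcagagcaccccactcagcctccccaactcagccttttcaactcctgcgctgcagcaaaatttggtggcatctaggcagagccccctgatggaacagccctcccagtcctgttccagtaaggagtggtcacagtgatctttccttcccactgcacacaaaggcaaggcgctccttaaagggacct
Of the 8 called genes 7 had entries, with 11 promoters in all, and no motif match overlapped another in the promoters of these genes and Kcnip2. CCACCC was found in promoters of 6 of the 7 genes (Kcnab1 had none), in 72.7% of the 11 promoters, in 58.9% of the 95 promoters of all members and in 31.5% of all 32851 promoters in the table. Median G+C content was 58.0% in promoters of members and 52.7% in all, and its part in that difference was not tested. CACGTG was present in 2 promoters of Kcnab1 and in none of the other called genes, against 7.15% of all promoters. AGAACA was present in Kcnj5 and Kcnab1, in 18.2% of the 11 promoters and 19% of all. The letters AGGTCA and TTANNTAA were not in these 11 windows, and 16.3% and 6.00% of all promoters hold them. A match is a description of letters and shows no binding.

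Kcnd2, which encodes a pore-forming subunit of the fast transient outward channel, was higher in the light. Light-phase arrays, replicates 1 to 4 in order, gave log2 values of 0.23, -0.05, 0.13 and 0.35 at ZT03, 0.16, 0.18, 0.25 and -0.03 at ZT07, and 0.23, 0.22, 0.14 and -0.05 at ZT11. Dark arrays gave -0.15, -0.25, -0.15 and 0.01 at ZT15, -0.14, 0.04, -0.13 and 0.04 at ZT19, and -0.09, -0.01, -0.02 and -0.20 at ZT23. Of 12 light arrays 9 lay above every dark array, and the other 3, one at each time, fell within the dark range. The matching share over all genes was not counted, so this describes the arrays only. The mean went from 0.14 ± 0.13 (SD, n = 4) at ZT11 to -0.13 ± 0.11 at ZT15, the step across lights-off, which was not tested on its own. Night minus day was -0.23 ± 0.0471 (log2, SE, 12 arrays against 12, limma adjusted p = 0.00463), one of 4 members called in this contrast, where 4.39% of all genes were. The cosine fit gave an amplitude of 0.151 ± 0.0351 (SE), a 1.23-fold change (limma adjusted p = 0.0205).

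Kcnip2 encodes KChIP2, the auxiliary subunit that Kcnd2 channels in heart muscle assemble with, and its rhythm under the transcription factor Klf15 has been described in mouse heart. Here it had no detectable rhythm. In the light the arrays gave -0.20, 0.08, 0.09 and 0.18 at ZT03, -0.0013, -0.18, 0.0013 and 0.06 at ZT07, and -0.17, 0.09, -0.06 and 0.01 at ZT11. Over the dark phase the values became 0.02, -0.08, 0.01 and -0.11 at ZT15, -0.09, 0.04, 0.09 and 0.24 at ZT19, and -0.01, -0.04, -0.15 and -0.50 at ZT23. Light and dark arrays overlapped nearly throughout, and the lowest value, -0.50, was that of ZT23 replicate 4, an array of low weight. The amplitude was 0.0185 ± 0.0425 (SE, adjusted p = 0.969 in limma's test). Night minus day was -0.04 (95% interval -0.15 to 0.08) and dusk minus dawn 0.03 (95% interval -0.11 to 0.17), and adjusted p remained at or above 0.867 in every setting tried for its rhythm. Whether Kcnip2 and Kcnd2 differ in rhythm was not tested.

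The other transient outward genes were not called. Kcnd3, another pore-forming gene of the fast current, had an amplitude of 0.061 ± 0.0352 (adjusted p = 0.582), with means between -0.14 at ZT11 and 0.04 at ZT19. Kcna4, which carries the slow transient outward current, had 0.0785 ± 0.027 (limma adjusted p = 0.177), and its 2 probe sets gave peaks at ZT 0.565 and ZT 20.1 (adjusted p = 0.0815 and 0.501). Kcnd1, a relative outside the cardiac list, had 0.0846 ± 0.0302 (adjusted p = 0.203).

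Some transcription factors known to act on these genes varied over the day. Klf15, an activator of Kcnip2, had values in the light of -0.05, -0.0073, 0.23 and -0.0029 at ZT03, -0.11, 0.0029, 0.07 and 0.15 at ZT07, and 0.20, 0.46, 0.50 and 0.64 at ZT11. After lights-off the arrays read 0.27, 0.23, 0.06 and -0.15 at ZT15, 0.06, -0.12, -0.41 and -0.10 at ZT19, and -0.19, -0.52, -0.26 and -0.28 at ZT23. All 4 arrays at ZT11 lay above all 4 at ZT23. These were its highest and lowest times, and 27.6% of all genes had such a separation between theirs. The 1.5-fold rhythm of Klf15 peaked at ZT 10.6 (limma adjusted p = 0.00153). Irx5, a repressor of Kcnd2 in ventricular muscle, changed 1.21-fold with a peak at ZT 2.00 (limma adjusted p = 0.0123). The related factor Irx3, which takes part in ventricular conduction, changed 1.16-fold with a peak at ZT 4.93 (limma adjusted p = 0.0114), and 1.39-fold when its probe set of widest range was used in place of the mean. These 3 calls held when each array was left out in turn and without the 3 arrays of lowest weight. Etv1, Tbx5 and Nkx2-5 were not called (adjusted p = 0.355, 0.0759 and 0.169).

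**Figure D2:**
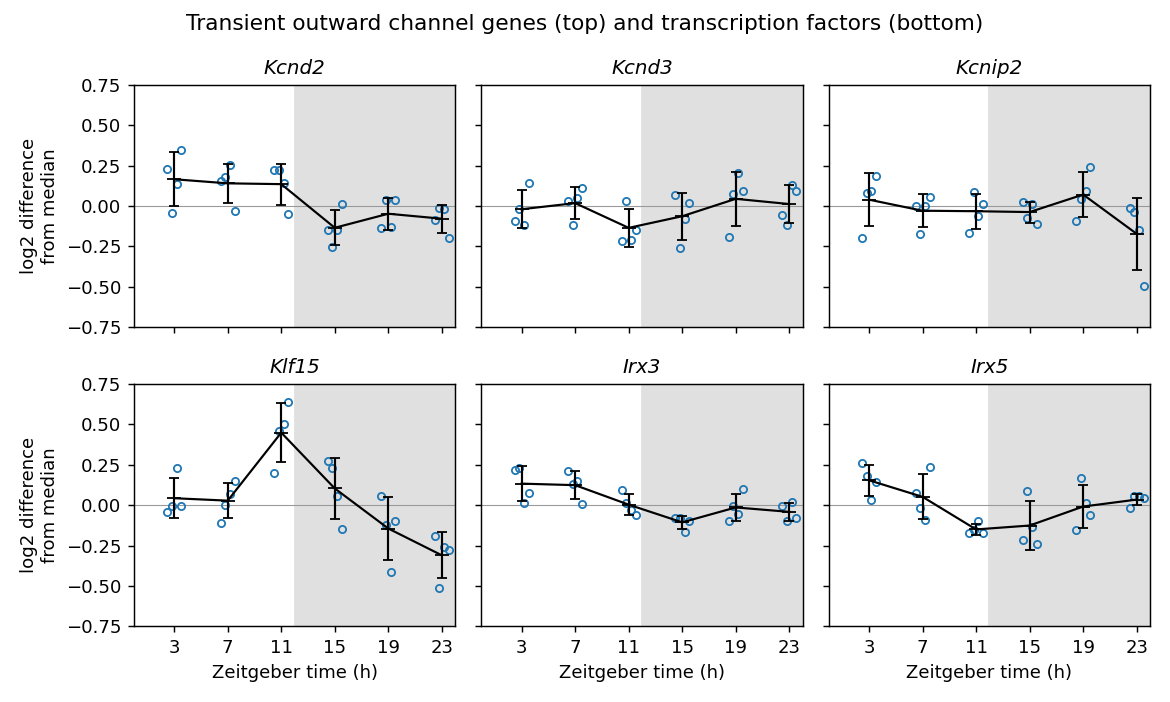
Log2 difference from the median, averaged over probe sets (y axis), over zeitgeber time (x axis, dark phase shaded) for Kcnd2, Kcnd3 and Kcnip2 and for the transcription factors Klf15, Irx3 and Irx5. Circles are single arrays, 4 per time, and black marks and bars are mean and SD. Kcnd2 steps down between ZT11 (0.14) and ZT15 (-0.13), Kcnip2 stays between -0.17 and 0.07, and Klf15 is highest at ZT11 (0.45).

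Kcna5, which encodes the pore of the ultrarapid delayed rectifier, was highest around lights-off. Under light the gene had -0.34, -0.08, 0.02 and -0.04 at ZT03, 0.06, 0.02, 0.13 and 0.25 at ZT07, and -0.03, 0.10, 0.01 and 0.44 at ZT11. Arrays from the dark phase had 0.33, 0.22, 0.14 and -0.01 at ZT15, -0.05, -0.13, -0.06 and 0.21 at ZT19, and -0.17, -0.03, -0.31 and -0.18 at ZT23. The 4 arrays at ZT15, the highest time, all lay above the 4 at ZT23, the lowest, a separation that 27.6% of all genes had. The spread at ZT11 was wide (SD 0.21), with replicate 4 at 0.44. Of the 8 dusk arrays (ZT11 and ZT15) 5 lay above all 8 dawn arrays (ZT23 and ZT03), a count not made for all genes. Dusk minus dawn was 0.29 ± 0.0712 (SE, limma adjusted p = 0.0196), and 2 members passed in this contrast, both higher at dusk, where 3.76% of all genes passed. The rhythm was 1.27-fold (amplitude 0.174 ± 0.0399, limma adjusted p = 0.0181), and both calls were lost without the 3 arrays of lowest weight (limma adjusted p = 0.0557 for the rhythm and 0.0688 for dusk against dawn).

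Kcnab1 encodes a beta subunit that binds Kv1 channels such as the product of Kcna5, and it was higher in the light. Light-phase arrays read 0.31, 0.18, 0.12 and 0.04 at ZT03, 0.06, 0.06, -0.05 and 0.14 at ZT07, and 0.03, 0.10, -0.03 and 0.22 at ZT11. Dark arrays gave -0.05, -0.18, -0.25 and -0.02 at ZT15, -0.11, -0.06, 0.09 and -0.10 at ZT19, and -0.01, 0.0023, -0.0023 and -0.04 at ZT23. Of the light arrays 10 of 12 lay above the gene's median. Centring on the median fixes the dark count at 2 of 12, and the share of all genes with such a split was not counted. The 4 arrays at ZT03, the highest time, did not overlap the 4 at ZT15, the lowest, a separation that 27.6% of all genes had. Night minus day was -0.16 ± 0.0371 (SE, limma adjusted p = 0.0127), and this call held when each array was left out. Its rhythm (1.17-fold, limma adjusted p = 0.0396) peaked at ZT 5.05, ahead of that of Kcna5 by several hours, and fell short of the threshold in 10 of the 24 fits that each omit 1 array (limma adjusted p as high as 0.0801) and without the 3 arrays of lowest weight (0.0819). Kcnab2, another beta subunit, had an amplitude of 0.0575 ± 0.0241 (limma adjusted p = 0.33).

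Kcnh2 encodes the ERG channel of the rapid delayed rectifier, known for its part in long QT syndrome and drug-induced arrhythmia. Light arrays gave -0.10, -0.12, 0.01 and 0.11 at ZT03, 0.22, -0.03, 0.19 and -0.06 at ZT07, and 0.15, 0.05, -0.0054 and 0.31 at ZT11. Over the dark phase the values became 0.03, 0.0054, 0.14 and 0.16 at ZT15, -0.12, -0.12, 0.05 and -0.15 at ZT19, and -0.11, -0.36, -0.03 and -0.08 at ZT23. The arrays at ZT11, the highest time, lay above those at ZT23, the lowest, with little room between them. Such a separation was seen in 27.6% of all genes. Neither night against day (adjusted p = 0.23) nor dusk against dawn (adjusted p = 0.0816) passed in limma's tests. The rhythm was 1.21-fold with a peak at ZT 10.5 (limma adjusted p = 0.0202), and it rested on ZT11 replicate 4 and ZT23 replicate 2, without either of which the adjusted p reached up to 0.0549. Kcne2, an accessory subunit of that channel, had means from -0.05 to 0.07 and no call (limma adjusted p = 0.727).

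Rnf207, a ring finger protein known to bind the ERG channel and raise its current, had the largest amplitude on the list of channel partners. In the light the arrays gave 0.02, 0.20, 0.15 and 0.26 at ZT03, 0.34, 0.09, 0.33 and 0.56 at ZT07, and 0.02, 0.35, 0.30 and 0.45 at ZT11. After lights-off the arrays read -0.13, -0.06, -0.19 and -0.16 at ZT15, -0.34, -0.11, -0.17 and -0.02 at ZT19, and -0.02, -0.09, -0.38 and -0.34 at ZT23. All 12 light arrays lay above all 12 dark arrays, though the closest were 0.0162 (ZT03 replicate 1) and -0.0162 (ZT23 replicate 1). How many of all genes had such a separation was not counted. It changed 1.51-fold with a peak at ZT 7.71 (amplitude 0.3 ± 0.0417, limma adjusted p = 0.000112), and night minus day was -0.43 ± 0.0577 (limma adjusted p = 0.000107).

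Kcnq1, the pore of the slow delayed rectifier, was highest at ZT03. During the light phase the arrays read 0.03, 0.02, 0.22 and 0.25 at ZT03, 0.16, 0.17, -0.02 and 0.06 at ZT07, and -0.23, -0.01, -0.0041 and -0.04 at ZT11. Arrays from the dark phase had -0.16, -0.10, 0.0073 and -0.12 at ZT15, 0.13, -0.04, -0.17 and -0.0047 at ZT19, and 0.11, 0.0053, -0.07 and 0.0041 at ZT23. Light arrays above every dark array numbered 4 of 12, a count not made for all genes. The 4 arrays at ZT03, the highest time, lay just above the 4 at ZT15, the lowest, a separation that 27.6% of all genes had. The rhythm was 1.16-fold (amplitude 0.107 ± 0.0273, limma adjusted p = 0.0378). It was the least stable of the 8, since 12 of the 24 fits that each omit 1 array missed the threshold (limma adjusted p as high as 0.0918), as did the fit without the 3 arrays of lowest weight (0.0908). Kcne1, the MinK subunit that slows this channel, had its highest mean at ZT03 too (0.11 ± 0.22) and its lowest at ZT19 (-0.22 ± 0.18), but with an SD of up to 0.22 it was not called (1.18-fold, limma adjusted p = 0.276). The antisense transcript Kcnq1ot1, which silences genes of the Kcnq1 imprinted domain, was not called either (peak at ZT 14.4, limma adjusted p = 0.238), and whether its probe set is strand-specific is not given in the sources used here. The MinK-related genes Kcne1l (also known as Kcne5), Kcne4 and Kcne3 had adjusted p-values of 0.249, 0.338 and 0.999 in limma's test.

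Kcnj12, which encodes a subunit of the inward rectifier that sets the resting potential, was higher in the dark. Under light the gene had -0.30, -0.07, -0.31 and -0.06 at ZT03, 0.07, 0.01, -0.15 and -0.28 at ZT07, and 0.08, -0.13, -0.0051 and -0.01 at ZT11. Dark arrays gave 0.0071, 0.18, 0.08 and 0.15 at ZT15, 0.04, 0.03, 0.13 and -0.05 at ZT19, and 0.0051, 0.09, -0.0053 and -0.0066 at ZT23. All arrays at ZT15, the highest time, lay above all at ZT03, the lowest, a separation that 27.6% of all genes had. Of 12 dark arrays 5 lay above every light array, a count not made for all genes. The rhythm was 1.18-fold with a peak at ZT 16.5 (limma adjusted p = 0.0288) and was lost without any of 6 arrays (adjusted p up to 0.0676) or without the 3 of lowest weight (0.0512). Night minus day was 0.15 ± 0.0409 (SE, limma adjusted p = 0.0387), a call that 15 of the 24 fits omitting 1 array did not give, nor did the fit with the replicate number as a block (adjusted p = 0.0551).

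Kcnj2, the main gene of that resting current, was not called (1.15-fold, limma adjusted p = 0.4). Its mean was 0.12 ± 0.15 at ZT03 and -0.12 ± 0.22 at ZT11, with single arrays from -0.41 to 0.37, so that arrays of the same time differed about as much as times did. Night minus day was 0.05 (95% interval -0.09 to 0.18). Kcnj4, a further member of this subfamily, had an amplitude of 0.0425 ± 0.0222 (limma adjusted p = 0.509).

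Kcnj5, a subunit of the acetylcholine-activated channel that slows the heart under vagal tone, was higher in the dark. Light arrays gave -0.34, -0.19, -0.05 and 0.05 at ZT03, 0.0073, -0.21, -0.20 and -0.60 at ZT07, and -0.26, -0.09, -0.04 and -0.11 at ZT11. Over the dark phase the values became 0.0041, 0.02, -0.02 and 0.03 at ZT15, -0.0041, 0.15, 0.15 and 0.28 at ZT19, and 0.08, 0.06, 0.04 and 0.10 at ZT23. Of the dark arrays 10 of 12 lay above the gene's median. The light count, 2 of 12, follows from this, since values are centred on that median. How many of all genes had such a split was not counted. The lowest value was that of ZT07 replicate 4, an array of low weight. The spread was much narrower at ZT15 (SD 0.02) and ZT23 (0.03) than at ZT07 (0.25). Night minus day was 0.24 ± 0.0537 (SE, limma adjusted p = 0.00968), and the 1.30-fold rhythm peaked at ZT 19.3 (amplitude 0.188 ± 0.0359, limma adjusted p = 0.00397). Both calls held without each array in turn and without the 3 arrays of lowest weight (adjusted p = 0.0097 for the rhythm).

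Kcnj3, whose product pairs with that of Kcnj5, was not called (1.06-fold, limma adjusted p = 0.683), and its night minus day difference was 0.04 (95% interval -0.04 to 0.11). Both genes are known to be richer in atria than in ventricles. All 7 atrial cardiomyocyte markers were measured (Myl4, Myl7, Sln, Nppa, Bmp10, Dkk3 and Stard10) and 0 had a rhythm in limma's test, while 5 of the 7 had a higher night mean, with a median night minus day difference of 0.13. The mean over the list ran from -0.15 to -0.085 over the arrays at ZT07, where Kcnj5 was lowest, and from -0.13 to 0.58 at ZT19, where Kcnj5 was highest. Within ZT19 the atrial list means of replicates 1 to 4 were 0.02, 0.20, 0.58 and -0.13. The Kcnj5 values of the same arrays were -0.0041, 0.15, 0.15 and 0.28. The part of atrial tissue in the Kcnj5 result was not tested. Genes upstream of this channel, the muscarinic receptor Chrm2, the G-protein subunits Gnai2 and Gnb5, and the regulators Rgs4 and Rgs6, were not called (adjusted p from 0.166 to 0.877 in limma's test).

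**Figure D3:**
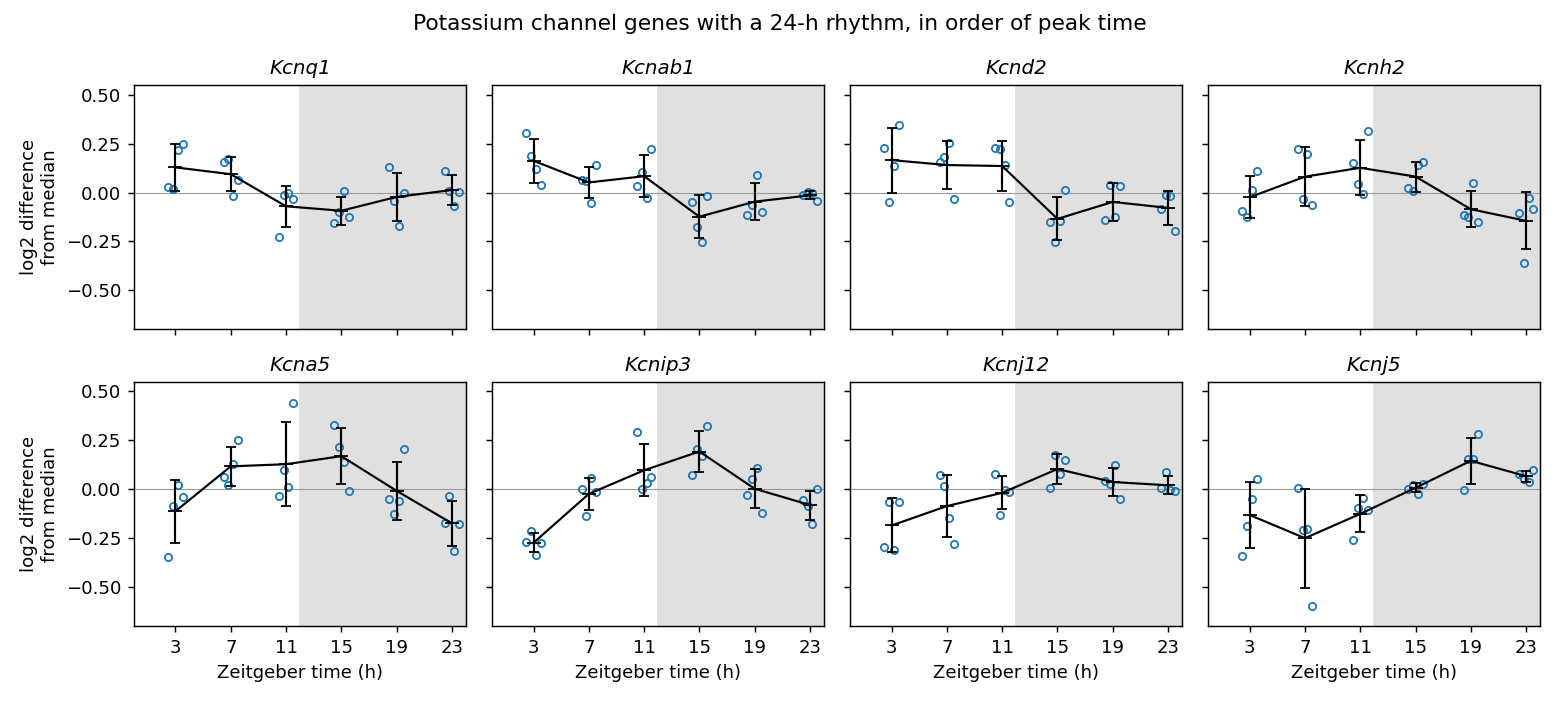
Log2 difference from each gene's median (y axis) over zeitgeber time (x axis, dark phase shaded) for the 8 members with a 24-h rhythm, in order of peak time. Circles are single arrays, 4 per time, and black marks and bars are mean and SD. The means of Kcnq1, Kcnab1 and Kcnd2 are highest at ZT03, that of Kcnh2 at ZT11, those of Kcna5, Kcnip3 and Kcnj12 at ZT15 and that of Kcnj5 at ZT19.

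Kcnip3, which encodes KChIP3, also known as calsenilin or DREAM, a calcium-binding protein that acts as a channel subunit and as a transcriptional repressor, had the largest amplitude and smallest p-value of the 90 members. Light-phase arrays read -0.27, -0.21, -0.33 and -0.28 at ZT03, 0.001, -0.14, 0.06 and -0.02 at ZT07, and 0.29, 0.0029, 0.03 and 0.06 at ZT11. After lights-off the arrays read 0.07, 0.21, 0.17 and 0.32 at ZT15, -0.03, 0.05, 0.11 and -0.12 at ZT19, and -0.06, -0.09, -0.18 and -0.001 at ZT23. The course rose from -0.27 ± 0.05 (SD, n = 4) at ZT03 to 0.19 ± 0.10 at ZT15, and all 8 dusk arrays lay above all 8 dawn arrays. That margin was narrow, with 0.0029 at ZT11 replicate 2 and -0.001 at ZT23 replicate 4. The share of all genes with this separation was not counted. The rhythm was 1.31-fold (amplitude 0.194 ± 0.0284, peak at ZT 14.1, limma adjusted p = 0.000204), and dusk minus dawn was 0.32 ± 0.0458 (SE, limma adjusted p = 9.96e-05). It was the only member called by the moderated F-test over all 6 times (adjusted p = 0.00115), a test that 4.72% of all genes passed. All 3 calls held when any array was left out, with the replicate number as a block and without the 3 arrays of lowest weight. The other KChIP genes, Kcnip1 and Kcnip4, had adjusted p-values of 0.914 and 0.699 in limma's rhythm test.

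Channels that couple repolarisation to metabolism, stretch or calcium showed no call. For the ATP-sensitive channel, Kcnj11 (cardiomyocyte pore) had an amplitude of 0.0476 ± 0.0371 and Kcnj8 (vascular pore) of 0.0308 ± 0.0388, with adjusted p-values of 0.762 and 0.906 in limma's test, and the sulfonylurea receptor genes Abcc9 and Abcc8 had 0.689 and 0.993. Kcnj8 is also a pericyte gene, and 0 of 8 smooth muscle and pericyte markers had a rhythm in limma's test. Kcnk2, a stretch-sensitive 2-pore channel, had 0.0568 ± 0.0449 (limma adjusted p = 0.769). The small-conductance calcium-activated genes Kcnn2 and Kcnn3 had 0.0916 ± 0.0368 and 0.0586 ± 0.0394 (limma adjusted p = 0.293 and 0.685), and Kcnn2 was lowest at ZT15 (-0.18 ± 0.14). Read with the several-gene probe sets, Kcnk3 had a 1.10-fold change (limma adjusted p = 0.256) that cannot be told from Gm9899, which the same probe set names. In all, 17 of the 24 listed genes had no call, with changes up to 1.18-fold, about the size of the smallest called change, 1.16-fold.

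**Figure D4:**
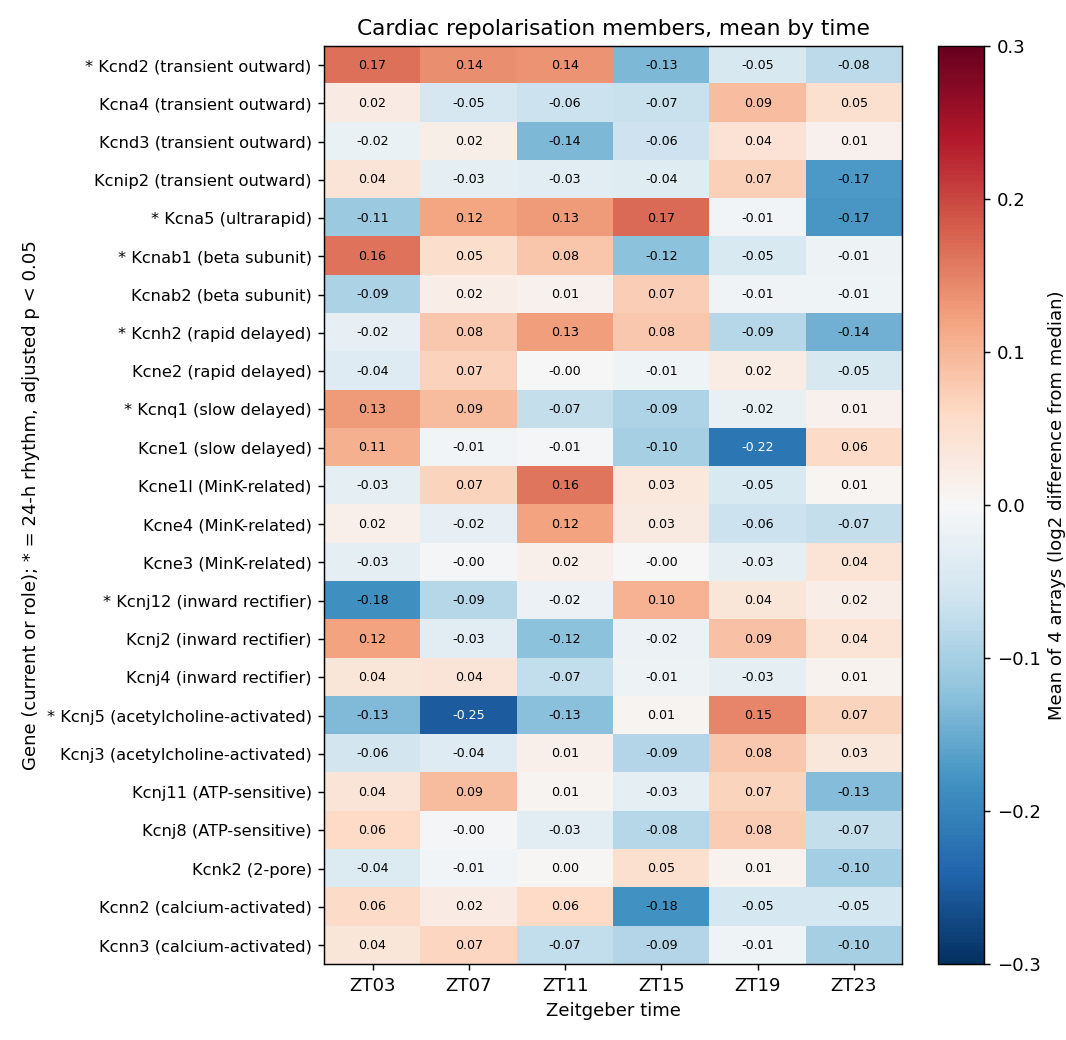
Mean of 4 arrays (log2 difference from the median, averaged over probe sets, colour and printed number) at each zeitgeber time (columns) for the 24 cardiac repolarisation genes (rows), grouped by the current or role of each gene, with an asterisk on the 7 that had a 24-h rhythm. Within a current the called gene can be set beside its partners: Kcnj5 runs from -0.25 to 0.15 and Kcnj3 from -0.09 to 0.08, and their difference was not tested.

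Outside the cardiac list only Kcnip3 was called among 66 members. The 6 with the next smallest p-values were Kcnk18, Kcnk16, Kcnd1, Kcnj1, Kcnq1ot1 and Kcnk5, with adjusted p from 0.137 to 0.251 in limma's test. Of these, Kcnk18, Kcnk16 and Kcnk5 are 2-pore channels better known from neurons, pancreas and kidney, and Kcnj1 is a channel of the kidney tubule. The 59 members not described singly, among them neuronal voltage-gated subunits, had changes of at most 1.17-fold and adjusted p of at least 0.274 in the cosine fit. The F-test over the 6 times called none of them, and its smallest adjusted p among them were those of Kcnv2, a silent modifier subunit (0.0822, ZT19 mean 0.27 ± 0.09 and ZT23 mean -0.09 ± 0.16), and Kcna6 (0.0887), both named after their values were seen. By family, 2 of 25 voltage-gated, 2 of 16 auxiliary, 2 of 14 inward rectifier, 1 of 8 EAG and ERG and 1 of 3 KCNQ genes had a rhythm, beside 7.61% of all genes. None was called among 13 2-pore and 8 calcium- or sodium-activated genes (0 and 0 in limma's test), of which 3 and 0 had an unadjusted p below 0.05, beside 19.5% of all genes. The arrays of a gene's highest time lay wholly above those of its lowest time in 22 of 90 members, and in 27.6% of all genes.

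Some genes that act on these channels from outside the family also varied over the day. A list of 24 channel partners, inputs and transcription factors was likewise chosen with earlier results of these data known. Of these 24 genes 22 were measured and 6 had a rhythm in limma's test, beside 7.61% of all genes. These were Rnf207, Klf15, Irx3, Irx5, Ank2 and Akap9. Each of the 6 peaked in the light, as did 849 of the 1688 rhythmic genes (3.83% of all genes). Ank2, which encodes ankyrin-B, an anchor of membrane transporters, changed 1.16-fold with a peak at ZT 8.29 (limma adjusted p = 0.0378). Akap9 encodes yotiao, the scaffold that ties protein kinase A to the Kcnq1 channel, and changed 1.12-fold with a peak at ZT 3.63, close to that of Kcnq1 (limma adjusted p = 0.0473). In 17 of the 24 fits omitting 1 array Akap9 was not called, and in 7 Ank2 was not. Both calls were lost with the replicate number as a block (limma adjusted p = 0.0669 and 0.0522), and that of Akap9 also without the 3 arrays of lowest weight (0.131). The transient outward partners Dpp6 and Dpp10 (adjusted p = 0.914 and 0.989), the caveolin Cav3 (0.448) and the ubiquitin ligase Nedd4l (0.795) were not called in limma's test.

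Between night and day 4 of the 90 members differed in limma's test, against 4.39% of all genes. Kcnj5 and Kcnj12 were higher at night, as were 1.89% of all genes, and Kcnd2 and Kcnab1 were lower, as were 2.49%. Taken over genes, the median of this contrast was -0.037 on the cardiac list, 0.0019 among all members and 0.0021 among all genes. The means of Kcnd2 were 0.15 in the light and -0.09 in the dark, and those of Kcnj5 were -0.17 and 0.07. Between dusk and dawn Kcnip3 and Kcna5 differed, both higher at dusk, as did 2.06% of all genes.

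The calls differed in how far they rested on single arrays. Those of Kcnip3, Kcnj5, Kcna5 and Kcnd2 held when each of the 24 arrays was left out, with the highest adjusted p at 0.000697, 0.0113, 0.0478 and 0.0459 (limma). Those of Kcnh2, Kcnj12, Kcnab1 and Kcnq1 depended on 2, 6, 10 and 12 single arrays, each of whose loss ended the call. Without the 3 arrays of lowest weight 4 members remained called, Kcnip3, Kcnj5, Kcnh2 and Kcnd2, and 7.79% of all genes were. With the replicate number as a block 6 members remained, and Kcnq1 (0.0624) and Kcnab1 (0.0568) did not. Only 1 cycle was sampled, and effects of light and of the clock cannot be told apart.

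**Figure D5:**
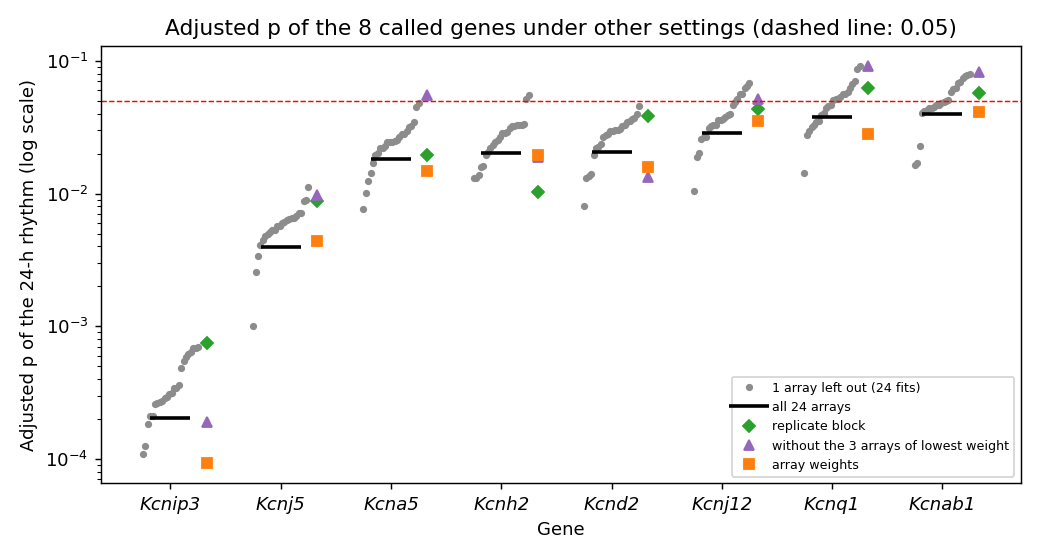
Adjusted p of the 24-h rhythm (y axis, log scale) for the 8 called genes (x axis) with all 24 arrays (black bar), with each array left out in turn (grey points), with the replicate number as a block, with array weights and without the 3 arrays of lowest weight, beside a dashed line at 0.05. Kcnip3, at most 0.000744 in these settings, stands clear of the line, Kcnj5 and Kcnd2 stay below it, and the points of Kcna5, Kcnh2, Kcnj12, Kcnq1 and Kcnab1 lie on both sides of it.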

How the data were processed

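RNA of 24 mouse heart samples had been hybridised to Affymetrix gene arrays from 500 ng of RNA each, per the labels' protocols. The deposited log2 values give 1 number per probe set and array, and their scale was inferred from the values. How the authors corrected background and normalized arrays is not stated in these sources. Each deposited probe set has a median of 0 over the arrays, within 5e-07, so no level, signal over background or filter on dim genes was possible. Array medians lay between -0.00223 and 0.00731. The number of arrays limits the precision.

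Of 34351 probe sets 23521 named 1 gene, 1814 several and 9016 none in the platform annotation. Symbols were checked by gene identifier against RefSeq (GRCm38.p6), which held 23328 of the 23521 and changed 0. Probe sets were averaged per gene, giving 22180 genes.

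limma 3.58.1 in R 4.3.3 fitted a cosine and a sine of 24 h, a moderated F over 6 time means, night against day and dusk against dawn to all genes, with Benjamini-Hochberg adjustment and a threshold of 0.05, and was tested on simulated data. Genes named were all measured cardiac repolarisation genes, all other members called in any test, the next 6 by p, and called partners, with Kcnip1, Kcnip4, Kcnv2, Kcna6 and uncalled partners added after their values were seen. The members and gene lists were chosen with earlier results of these data known. Alternatives were the probe set of widest range, several-gene probe sets, scaled arrays, array weights, robust eBayes, protein-coding genes only, a replicate block, other thresholds and each array left out. P-values measure the spread between these arrays.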

Additional observations from a re-analysis of the deposited data

Results flagged for a closer look

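In 11 of 186 groups of 4 arrays (31 named members at 6 times) a single array stood apart from the other 3, with a gap, as a share of the group's range, past Dixon's 95% critical value. Chance flags about 1 in 20 groups, or 5%, so this number is close to what chance gives. Among called genes these were Kcnh2 at ZT19 replicate 3 (0.05 against -0.15 to -0.12, 0.836 of the range), Kcnj12 at ZT23 replicate 2 (0.09 against -0.007 to 0.005, 0.878 of the range) and Kcnq1 at ZT11 replicate 1 (-0.23 against -0.04 to -0.004, 0.862 of the range). The widest gap in log2 was that of Kcnj8, a gene also expressed in pericytes, at ZT15 replicate 4 (0.33 against -0.26 to -0.18, 0.870 of the range). Kcnn2 stood low at ZT11 replicate 1 (-0.29 against 0.16 to 0.21, 0.891 of the range) and Kcnj11 high at ZT07 replicate 1 (0.24 against 0.04 to 0.05, 0.963 of the range). Kcna4 stood low at ZT15 replicate 1 (-0.23 against -0.02 to 0.01, 0.859 of the range) and Kcne4 low at ZT07 replicate 2 (-0.20 against 0.02 to 0.06, 0.859 of the range). Kcne2 stood high at ZT19 replicate 4 (0.12 against -0.02 to -0.001, 0.852 of the range). Kcnk5 stood low at ZT03 replicate 2 (-0.10 against -0.04 to -0.03, 0.888 of the range) and high at ZT19 replicate 4 (0.15 against 0.03 to 0.04, 0.921 of the range). No cause was tested.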

How the results depend on the processing

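The count of members with a 24-h rhythm stayed between 5 and 8 when each array was left out, with 5 without ZT03 replicate 3, ZT07 replicate 4 or ZT15 replicate 2. It was 4 without the 3 arrays of lowest weight (an alternative chosen after seeing the data) and 2 at an adjusted p below 0.01. With the replicate number as a block it was 6, and the counts of the other tests were 1, 3 and 2. Members called among all 6 times numbered 1, and 1 to 5 with an array left out, 5 of them without ZT15 replicate 4. They numbered 3 with array weights, 2 with scaled arrays and 2 with protein-coding genes only. Night against day gave 3 to 6 members with an array left out. Dusk against dawn gave 2 throughout these, and 1 without the 3 arrays of lowest weight. For the rhythms of single genes, partners included, 1123 alternative values kept their side of the threshold and 64 lost a call, and the cause was not tested. The 1123 include values of genes that had no call to lose, so the 2 counts do not give the stability of the calls. A fold from peak to trough has no direction to change. For same-numbered replicates of different times, deviations from the time means had a median correlation of -0.0102 (range -0.228 to 0.226). For other pairs the median was 0.00533 (range -0.2 to 0.303). Medians cannot show whether some same-numbered arrays shared a batch.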
